A study of Mus musculus with 12 samples.

Results

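Malonic acid was compared with medium alone in macrophages that were grown from the bone marrow of wild-type mice (BMDMs). The comparison took the 3 libraries of cells given malonic acid (MA) and the 3 libraries of cells in medium (M), 6 of the 12 libraries of the series, and covered all 14113 of 32285 genes with enough counts to be tested. MA was added from a 50 mM stock in RPMI to a final 5 mM and the cells were harvested after 16 h, as were the M cells, which received no acid. The other 6 libraries came from the same cells with itaconic acid (IA) or methylsuccinic acid (MetSA) at the same dose and time. They entered the fit to share 1 estimate of the spread, and they serve below only to show where MA differed from its relatives. The labels call the samples biological replicates WT1 to WT3. Whether these were separate mice, and the strain, age and pH of the medium after the acid was added, were not stated in the sources used here, so the p-values measure the spread between these cultures. Because RNA was taken from whole cultures, fewer cells of a type and less RNA per cell cannot be told apart.

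Malonic acid is the shortest of these dicarboxylic acids and a textbook competitive inhibitor of succinate dehydrogenase, the enzyme that passes electrons from succinate to the respiratory chain. Inside mitochondria malonate can also be activated to malonyl-CoA by the ligase Acsf3, and malonyl-CoA is the building block of fatty acid synthesis and an inhibitor of carnitine palmitoyltransferase. Macrophages read cues such as TGF-beta, interferons and microbial products through receptors that act on SMAD, STAT and NF-kB proteins, and part of what follows is ordered by those pathways. Levels are given as CPM, the count of a gene relative to its library's TMM-scaled depth, so levels are compared between libraries and not between genes. Fold changes are on the log2 scale from edgeR's quasi-likelihood fit, adjusted p-values are Benjamini-Hochberg values over all genes tested, and a gene was called at an adjusted p under 0.05.

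The M and MA libraries were alike in depth, with 46892488 to 51448555 counts in M and 50236563 to 52421284 counts in MA, and 16745 to 17056 genes had a count. Mitochondrially encoded mRNAs took 1.15% to 1.36% of counts in M and 1.05% to 1.12% in MA, so the ranges did not overlap. The cultures carried the RNA of macrophages. Csf1r, the receptor for the growth factor that sustains them, stood at 2587, 2722 and 2867 CPM in M and 2745, 2846 and 2995 CPM in MA. Adgre1, which encodes the macrophage antigen F4/80, stood at 2566, 2720.4 and 2598 CPM in M and 1957, 1882 and 2006 CPM in MA. Markers of other cells were scarce. The summed level of the 9 tested neutrophil markers ran from 73.9 to 111 CPM in M and from 75.02 to 94.3 CPM in MA. That of 6 stromal markers ran from 16.2 to 41.2 and from 19.0 to 37.6 CPM, and that of 8 dendritic cell markers from 3.04 to 5.29 and from 3.71 to 4.46 CPM. Of 7 lymphocyte markers 2 and of 5 mast cell and basophil markers 1 had enough counts to be tested, and none of 5 erythroid markers did. The ranges of these sums overlapped between M and MA.

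MA changed 2860 of the 14113 genes (20.3%), 1429 upwards (10.1%) and 1431 downwards (10.1%), and the median log2 fold change of all genes was -0.02. For 2801 of the 2860 the 3 MA values and the 3 M values did not overlap, but over all genes tested, called or not, this was so for 2409 with MA higher (17.1%) and 2622 with MA lower (18.6%). An absence of overlap is therefore common here and is given below as a description. The 12 largest rises and 12 largest falls were picked among called genes without overlap, so for them its absence was fixed in advance. The counts of members of each list are to be read against the 10.1% of all genes called in each direction. A change of at least 2-fold was called for 305 genes that rose and 223 that fell, and one of at least 4-fold for 77 and 50. Most responses were thus smaller than 2-fold, with a short list of large ones on each side.

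**Figure D1:**
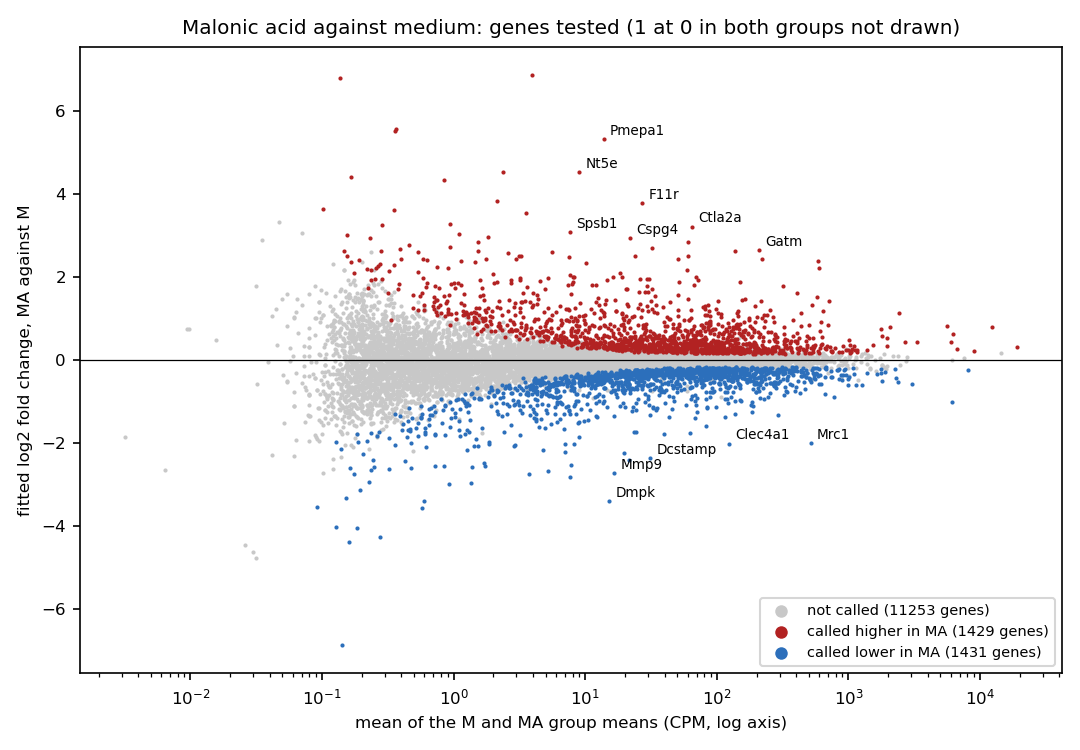
Fitted log2 fold change of MA against M (vertical axis) against the mean of the M and MA levels (horizontal log axis, CPM), 1 point a gene, grey where not called, red where called higher and blue where called lower. The 1429 red and 1431 blue points fan out on both sides of 0. Pmepa1, Nt5e and F11r stand highest and Dmpk lowest among the genes labelled in the figure.

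The largest rise among genes reaching 10 CPM was that of Pmepa1 (chromosome 2, 173224458 to 173276533 in mm10), a membrane protein that TGF-beta induces and that in turn restrains TGF-beta signalling. Its level was 0.524, 0.815 and 0.6496 CPM in M and 28.2, 26.4 and 26.3 CPM in MA, a 40.4-fold rise (log2 fold change 5.34 ± 0.18 SE, adjusted p = 9.53e-14). Nt5e (chromosome 9, 88327197 to 88372092), the surface enzyme CD73 that turns AMP into adenosine, was at 0.745, 0.519 and 0.974 CPM in M and 19.4, 17.99 and 14.5 CPM in MA, 23.2-fold higher (log2 fold change 4.53 ± 0.23 SE, adjusted p = 5.26e-11). Both genes were close to silent in every M library and clearly expressed in every MA library. F11r (chromosome 1, 171437535 to 171464603), which encodes the junctional adhesion molecule JAM-A, rose from 2.58, 3.89 and 4.47 CPM to 43.98, 51.04 and 56.4 CPM (log2 fold change 3.79 ± 0.16 SE, adjusted p = 8.40e-11).

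The rest of the 12 largest rises held proteins of the cell surface and the matrix together with enzymes. Cspg4, the proteoglycan NG2, stood at 4.15, 6.15 and 4.64 CPM in M and 36.3, 44.5 and 35.02 CPM in MA (log2 fold change 2.95 ± 0.16 SE, adjusted p = 1.01e-09). Cav1, the main coat protein of caveolae, stood at 13.7, 17.6 and 12.7 CPM in M and 99.3, 112 and 105 CPM in MA (log2 fold change 2.84 ± 0.26 SE, adjusted p = 5.29e-05). Ptgfrn, a partner of tetraspanins, stood at 16.9, 21.1 and 15.4 CPM in M and 98.7, 111 and 97.2 CPM in MA (log2 fold change 2.52 ± 0.18 SE, adjusted p = 1.89e-06). All 3 were already detectable in M, and for each the lowest MA library lay far above the highest M library. Notch4, a Notch receptor, was at 8.66, 10.2 and 6.82 CPM in M and 52.4, 60.8 and 54.2 CPM in MA (log2 fold change 2.704 ± 0.12 SE, adjusted p = 1.91e-11). Spsb1, a substrate adaptor of ubiquitin ligases, reached 13.9, 14.2 and 13.2 CPM from 1.57, 1.83 and 1.41 CPM (log2 fold change 3.09 ± 0.20 SE, adjusted p = 5.67e-10). Gatm, which makes the precursor of creatine, reached 355, 336 and 384 CPM from 51.5, 58.4 and 60.03 CPM (log2 fold change 2.66 ± 0.08 SE, adjusted p = 1.94e-14). Olfml3, a secreted matrix protein, reached 214, 241 and 250.04 CPM from 33.3, 41.97 and 38.98 CPM (log2 fold change 2.63 ± 0.10 SE, adjusted p = 3.97e-12). For each of these genes the groups were far apart relative to the spread of the 3 libraries. Ctla2a, a cysteine protease inhibitor, rose with the smallest adjusted p of the set (10.6, 12.9 and 13.8 CPM in M and 124, 116 and 109 CPM in MA; log2 fold change 3.23 ± 0.09 SE, adjusted p = 4.41e-15). Its count is less certain, because 11.5% of its transcript stretches of 96 bases are shared with other genes, among them Ctla2b.

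**Figure D2:**
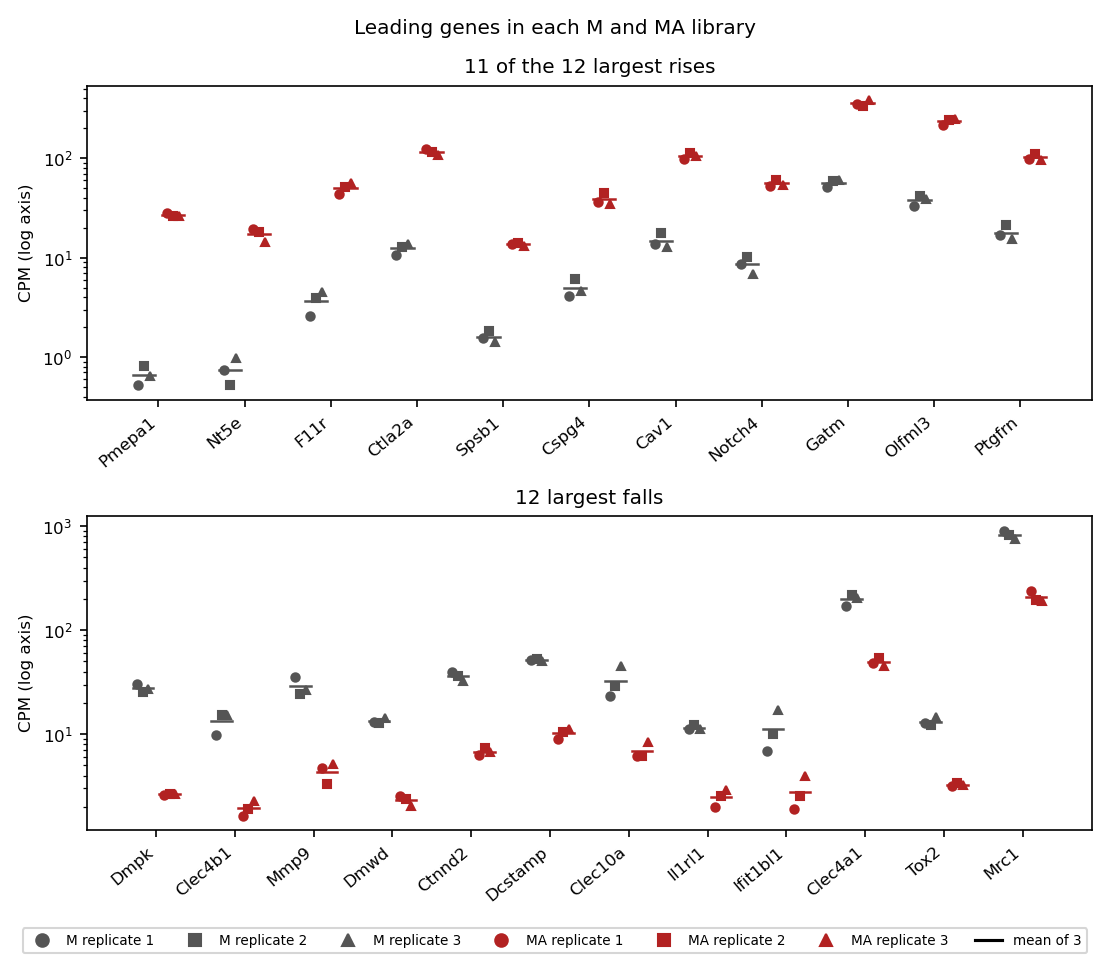
CPM (vertical log axis) of 11 of the 12 largest rises (top) and the 12 largest falls (bottom) in each M library (grey) and each MA library (red), with a horizontal line at the mean of 3 and a marker shape for each replicate. No M and MA values overlap in any of the 23 genes, which the rule that picked them required. The MA libraries of Pmepa1 lie between 26.3 and 28.2 CPM against 0.524 to 0.815 CPM in M.

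Promoters were searched for 9 short motifs, among them TGANTCA, the site of AP-1 factors, which growth factors and TGF-beta activate. It was found in 11.4% of the 299 promoters of genes that rose at least 2-fold, in 7.44% of the 1505 promoters of all genes that rose, in 7.87% of the 178 promoters of genes that fell at least 2-fold and in 5.44% of the 13505 promoters of all genes tested, on either strand and in windows of 300 bases from RefSeq on GRCm38.p6. AP-1 was not the only motif whose share differed. TTTCNNTTT, the interferon response core, stood in 16.85% of the promoters of genes that fell at least 2-fold, against 8.26% for all genes tested. TGACNNNGC, an antioxidant response core, stood in 18.1% of the promoters of genes that rose at least 2-fold, against 14.5%. These differences were not tested. A match is a description of letters and not of binding. The 250 bases before the RefSeq start sites of F11r and of Havcr2, another gene with such a match and a rise described below, are shown 5′ to 3′ on the plus strand with TGANTCA in capitals, which begins 109 and 200 bases before the start. Below them the promoter of Tgfbi, a matrix protein induced by TGF-beta, shows GGCGCC, a core read by SMAD proteins, in capitals 77 bases before the start.
F11r chr1:171437311-171437560: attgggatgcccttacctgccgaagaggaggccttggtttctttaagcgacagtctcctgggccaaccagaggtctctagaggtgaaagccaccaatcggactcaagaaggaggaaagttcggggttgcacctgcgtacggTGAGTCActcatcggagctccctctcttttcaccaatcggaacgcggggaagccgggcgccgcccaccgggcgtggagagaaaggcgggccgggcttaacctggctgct
Havcr2 chr11:46454681-46454930: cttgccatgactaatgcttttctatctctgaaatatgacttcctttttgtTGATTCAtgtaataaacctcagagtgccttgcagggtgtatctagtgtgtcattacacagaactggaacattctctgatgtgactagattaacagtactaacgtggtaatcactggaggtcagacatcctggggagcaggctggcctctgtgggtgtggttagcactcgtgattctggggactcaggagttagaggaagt
Tgfbi chr13:56609336-56609585: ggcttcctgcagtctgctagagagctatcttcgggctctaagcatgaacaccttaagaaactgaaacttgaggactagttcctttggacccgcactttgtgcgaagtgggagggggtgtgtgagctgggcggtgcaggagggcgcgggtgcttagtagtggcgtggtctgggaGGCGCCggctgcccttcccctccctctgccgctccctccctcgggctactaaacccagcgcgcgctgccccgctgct
GGCGCC stood in 36.8% of the 19 promoters of the SMAD list and in 27.3% of the 11 of its called members. Among all genes tested it stood in 19.6% of promoters. The 19 promoters belonged to 13 genes and the 11 to 7 genes, so a gene with several promoters counted more than once. Pmepa1, Skil and Id1 had no promoter in the set searched. GTCTAGAC, the other SMAD motif searched, stood in 1 of the 19. GGCGCC was less frequent, at 13.04%, in the promoters of genes that rose at least 2-fold.

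TGF-beta is made as a latent precursor, freed by proteases and integrins, and read by a pair of kinase receptors that phosphorylate SMAD proteins, whose targets include their own inhibitors. The cytokine side moved in both directions: of 23 ligands, receptors and activators 6 rose and 6 fell (26.1% in each direction), with a median of -0.05. Tgfbr1, the type I receptor, rose the most surely, from 388, 402 and 358 CPM to 1018, 993 and 1082 CPM (log2 fold change 1.43 ± 0.07 SE, adjusted p = 1.47e-11). Every MA library was far above every M library. The integrin chain Itgav, which binds latent TGF-beta, was at 444, 456 and 366 CPM in M and 859.6, 792 and 759.9 CPM in MA (log2 fold change 0.93 ± 0.07 SE, adjusted p = 1.05e-08). Furin, the protease that cleaves the precursor, stood at 182, 172 and 186 CPM in M and 268, 263 and 268 CPM in MA (log2 fold change 0.57 ± 0.05 SE, adjusted p = 2.17e-07). Nrros, which tethers latent TGF-beta on myeloid cells, fell from 349, 336 and 357 to 249.7, 239 and 225 CPM (log2 fold change -0.54 ± 0.06 SE, adjusted p = 6.17e-07). Tgfbr1 and the tether therefore moved in opposite directions.

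The SMAD side leaned upwards, with 12 of 23 tested members higher (52.2%, against 10.1% of all genes), 2 lower and a median of 0.24. The 5 receptor-regulated and common SMADs tested, Smad1 to Smad5, were not called (fold changes from -0.19 to 0.24). What rose were targets and inhibitors of the pathway. Besides Pmepa1, Tgfbi rose from 126, 146 and 160.4 to 466, 521 and 502 CPM (log2 fold change 1.78 ± 0.09 SE, adjusted p = 4.99e-11). Skil, which encodes the SMAD repressor SnoN, went from 149, 167 and 144 to 315, 335 and 330.1 CPM (log2 fold change 1.09 ± 0.07 SE, adjusted p = 6.95e-10). The 2 members that fell were Id1 and Id3, inhibitors of basic helix-loop-helix factors that are best known as BMP targets. Id1 stood at 1.85, 1.72 and 2.102 CPM in M and 0.466, 0.703 and 0.5003 CPM in MA (log2 fold change -1.76 ± 0.26 SE, adjusted p = 3.67e-05). Id3 stood at 29.8, 29.9 and 39.4 CPM in M and 13.5, 20.8 and 17.4 CPM in MA (log2 fold change -0.94 ± 0.14 SE, adjusted p = 2.82e-04). The groups did not overlap in either. This list was drawn up with the rise of Pmepa1 already known, so its counts are no independent evidence of a direction.

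Surface molecules that hold cells to matrix and neighbours changed in an uneven way. Of 35 integrin and adhesion genes 10 rose (28.6%) and 6 fell (17.1%), and the 6 became 3 without M replicate 2, 2 without MA replicate 1 and 3 without MA replicate 2. Itgb5, a partner of Itgav, rose from 405, 392 and 374 to 898, 926 and 861 CPM (log2 fold change 1.197 ± 0.06 SE, adjusted p = 1.18e-11). Itga6, a laminin receptor chain, rose from 484, 534 and 470.2 to 903, 882 and 908 CPM (log2 fold change 0.86 ± 0.07 SE, adjusted p = 1.96e-08). Itgb3, another partner of Itgav and a marker of osteoclasts, fell from 11.2, 13.7 and 11.5 to 5.52, 4.103 and 5.35 CPM (log2 fold change -1.28 ± 0.18 SE, adjusted p = 4.55e-05). Sirpa, the receptor for the CD47 signal, fell from 3750.1, 3594 and 3503 to 2539.98, 2311 and 2418 CPM (log2 fold change -0.58 ± 0.06 SE, adjusted p = 3.53e-07). Itgav and these beta chains thus did not move as a block. In caveolae Cav2 rose with Cav1 (115, 129 and 119 CPM in M and 207, 195 and 207 CPM in MA; log2 fold change 0.74 ± 0.09 SE, adjusted p = 4.32e-06). Cavin1, the coat protein needed to form them, fell (19.4, 15.5 and 17.04 CPM in M and 7.02, 7.56 and 6.04 CPM in MA; log2 fold change -1.33 ± 0.12 SE, adjusted p = 8.99e-08).

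Proteases that cut the matrix were split too, 9 of 25 metalloproteinases and inhibitors being higher (36%) and 6 lower (24%), or 3 lower without MA replicate 1 or MA replicate 2. Mmp14, a membrane-bound collagenase that activates Mmp2, was at 6.44, 7.83 and 6.401 CPM in M and 26.9, 29.9 and 32.7 CPM in MA (log2 fold change 2.11 ± 0.10 SE, adjusted p = 9.82e-12). Mmp2 itself stood at 1.11, 1.11 and 1.32 CPM in M and 4.901, 4.26 and 3.77 CPM in MA (log2 fold change 1.87 ± 0.20 SE, adjusted p = 7.37e-07). Mmp9, the main gelatinase of macrophages and osteoclasts, went the other way, from 35.6, 24.3 and 26.4 to 4.68, 3.29 and 5.12 CPM (log2 fold change -2.72 ± 0.17 SE, adjusted p = 4.03e-09). Mmp15 fell from 1.89, 1.67 and 1.68 to 0.484, 0.532 and 0.462 CPM (log2 fold change -1.82 ± 0.29 SE).

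The osteoclast and cell fusion list, which also holds Mmp9 and Itgb3, had 5 of its 12 tested genes lower (41.7%) and 3 higher (25%). Dcstamp, the membrane protein needed for macrophages to fuse into multinucleate cells, fell from 52.04, 52.95 and 50.98 to 9.06, 10.4 and 11.1 CPM (log2 fold change -2.35 ± 0.17 SE, adjusted p = 6.63e-07). Atp6v0d2, a proton pump subunit also tied to fusion, went from 99.5, 93.8 and 84.7 to 51.6, 42.3 and 53.4 CPM (log2 fold change -0.92 ± 0.11 SE, adjusted p = 2.35e-05). Against this direction, Acp5, the tartrate-resistant phosphatase, rose from 2.9002, 2.797 and 3.44 to 7.304, 7.12 and 7.47 CPM (log2 fold change 1.26 ± 0.15 SE, adjusted p = 3.70e-06). Ostm1, a partner of the lysosomal chloride channel, rose from 62.7, 64.05 and 61.9 to 82.1, 81.7 and 79.9 CPM (log2 fold change 0.37 ± 0.06 SE).

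The largest fall of all genes reaching 10 CPM was that of Dmpk (chromosome 7, 19083849 to 19093821), the kinase gene whose repeat expansion causes myotonic dystrophy. It stood at 30.01, 25.6 and 27.4 CPM in M and 2.57, 2.68 and 2.67 CPM in MA (log2 fold change -3.39 ± 0.13 SE, adjusted p = 3.53e-13). The MA libraries were close to each other and far below every M library. Dmwd (chromosome 7, 19076227 to 19082776), the next gene upstream on the same strand, fell from 12.95, 12.7 and 14.2 to 2.55, 2.37 and 2.04 CPM (log2 fold change -2.51 ± 0.12 SE, adjusted p = 1.50e-11). The tested neighbours on either side were not called: Sympk, Fbxo46 and Qpctl had log2 fold changes of -0.11, -0.06 and -0.11, and Six5, just downstream, one of -0.65 with an adjusted p of 0.134. These neighbours were looked up after the 2 falls had been seen.

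Several of the other large falls were receptors that mark tissue-type or alternatively activated macrophages. Mrc1, the mannose receptor CD206, fell from 905, 819 and 755 to 236, 196 and 189.6 CPM (log2 fold change -1.996 ± 0.09 SE, adjusted p = 1.91e-11). The lectin Clec10a went from 23.2, 29.2 and 45.3 to 6.19, 6.17 and 8.37 CPM (log2 fold change -2.24 ± 0.31 SE, adjusted p = 9.46e-04). Clec4a1 and Clec4b1 are lectins of 1 gene cluster. Clec4a1 stood at 171, 219 and 203 CPM in M and 48.4, 53.7 and 45.6 CPM in MA (log2 fold change -2.005 ± 0.09 SE, adjusted p = 9.82e-12). Clec4b1 stood at 9.75, 15.1 and 15.4 CPM in M and 1.64, 1.8997 and 2.25 CPM in MA (log2 fold change -2.798 ± 0.24 SE, adjusted p = 7.18e-07). Il1rl1, the IL-33 receptor, fell from 11.2, 12.2 and 11.2 to 1.98, 2.56 and 2.91 CPM (log2 fold change -2.22 ± 0.17 SE). Ctnnd2, a catenin, fell from 39.9, 36.3 and 32.2 to 6.28, 7.31 and 6.79 CPM (log2 fold change -2.41 ± 0.22 SE). Tox2, a nuclear HMG-box protein, fell from 12.8, 12.2 and 14.5 to 3.19, 3.4004 and 3.23 CPM (log2 fold change -2.004 ± 0.16 SE). In each of these genes the highest MA library lay below the lowest M library, as the choice of the largest falls required. The last of the 12, the interferon-induced Ifit1bl1, was more spread out (6.85, 9.93 and 17.04 CPM in M and 1.901, 2.56 and 3.93 CPM in MA; log2 fold change -2.02 ± 0.44 SE, adjusted p = 0.0117). It was not called without MA replicate 1 (adjusted p = 0.0536).

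Alternative activation as a whole, the state that IL-4 sets up, showed 9 of 21 tested genes lower (42.9%) and 5 higher (23.8%), against 10.1% of all genes in each direction, with a median of -0.43; the 5 became 3 without M replicate 2 or M replicate 3. Cd163, the haemoglobin scavenger receptor, fell from 34.3, 36.8 and 37.9 to 8.57, 11.9 and 12.4 CPM (log2 fold change -1.73 ± 0.20 SE, adjusted p = 9.26e-05). Arg1, the arginase that competes with nitric oxide synthase, went against this and rose from 0.463, 0.722 and 0.994 to 4.29, 4.83 and 4.14 CPM (log2 fold change 2.596 ± 0.32 SE, adjusted p = 6.97e-06). Tgm2, a transglutaminase, rose from 80.7, 84.5 and 82.7 to 224, 245 and 213 CPM (log2 fold change 1.46 ± 0.07 SE, adjusted p = 5.73e-12). Of its stretches 15.7% are shared with antisense transcripts, and the strand setting is not stated. Il4ra, the IL-4 receptor chain, rose from 86.1, 84.05 and 85.8 to 134, 137 and 126 CPM (log2 fold change 0.64 ± 0.06 SE). Genes usually read together as markers of 1 state therefore moved apart.

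The core genes of MHC class II, which presents antigen to helper T cells, fell. Ciita, the factor that switches on MHC class II genes, stood at 7.39, 8.09 and 8.83 CPM in M and 1.88, 3.08 and 3.44 CPM in MA (log2 fold change -1.53 ± 0.19 SE, adjusted p = 5.82e-06). Its targets Cd74, the invariant chain, H2-Aa and H2-Ab1, the chains of I-A, fell with it. Cd74 fell from 131, 173 and 197 to 54.7, 65.9 and 72.9 CPM (log2 fold change -1.37 ± 0.19 SE, adjusted p = 8.13e-04). H2-Aa went from 39.7, 51.1 and 54.01 to 18.1, 20.8 and 24.4 CPM (log2 fold change -1.19 ± 0.22 SE, adjusted p = 0.00385). H2-Ab1 fell from 39.1, 45.8 and 49.6 to 16.2, 21.6 and 23.99 CPM (log2 fold change -1.12 ± 0.22 SE, adjusted p = 0.00627). Within each of the 4 genes all MA values were below all M values. Of the 10 class II genes tested 5 were lower (50%) and 3 higher (30%). The 3 were unstable, falling to 0 without M replicate 1 or MA replicate 3 and to 1 without M replicate 2 or MA replicate 2, among them the accessory chains H2-Ob and H2-DMb1 (log2 fold changes of 1.25 and 0.31). Among 14 costimulatory and checkpoint genes 4 rose and 4 fell (28.6% each), and the 4 that fell became 2 without M replicate 3, MA replicate 2 or MA replicate 3. Havcr2, the inhibitory receptor TIM-3, rose from 26.002, 33.005 and 29.8 to 103, 107 and 104 CPM (log2 fold change 1.82 ± 0.07 SE, adjusted p = 1.57e-12). Cd276, the B7-H3 ligand, rose from 7.92, 7.48 and 8.48 to 20.3, 19.5 and 21.2 CPM (log2 fold change 1.35 ± 0.12 SE, adjusted p = 8.12e-08). Cd40, the receptor for help from T cells, fell from 13.98, 17.3 and 14.8 to 7.099, 7.58 and 10.4 CPM (log2 fold change -0.88 ± 0.15 SE, adjusted p = 6.72e-04).

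No subunit gene of succinate dehydrogenase, the enzyme that malonate inhibits, was called. Sdha, the subunit that binds succinate, stood at 232, 232 and 228 CPM in M and 225, 231 and 238 CPM in MA (95% interval of the log2 fold change -0.11 to 0.12, adjusted p = 0.961). Sdhb, the iron-sulfur subunit, was at 65.1, 71.97 and 74.7 CPM in M and 76.2, 79.5 and 81.97 CPM in MA (0.03 to 0.31, adjusted p = 0.0867). For the membrane anchors the intervals were -0.23 to 0.08 for Sdhc and -0.05 to 0.18 for Sdhd, neither called. Of the 4 intervals none reached beyond 0.31 in size, the upper bound of Sdhb. Sucnr1, the succinate receptor, had no count in any M or MA library. Of 33 genes of the TCA cycle and of SDH assembly 5 were called higher (15.2%) and 3 lower (9.09%), each by less than 2-fold, shares near the 10.1% of all genes in each direction. The 5 became 0 without MA replicate 1, 3 without MA replicate 2, and 1 without MA replicate 3 or M replicate 3. The 3 became 0 without MA replicate 1 and 1 without M replicate 1, M replicate 2, MA replicate 2 or MA replicate 3.

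Of 38 nuclear-encoded subunits of the respiratory chain none was called by edgeR (median -0.05, against -0.02 for all genes). Of these 3 were lower and 0 higher at an unadjusted p under 0.05, and DESeq2 called 1 lower. With edgeR 2 were called lower without MA replicate 3, and 1 without M replicate 2, without MetSA replicate 3, with upper-quartile scaling or with halved counts. A replicate block gave 2 lower, and on the M and MA libraries alone 2 lower and 1 higher. Of the 12 tested mitochondrially encoded mRNAs edgeR called none (median -0.15, log2 fold changes from -0.47 to 1.03). There 1 was lower at an unadjusted p under 0.05 and DESeq2 called none. Fitted on the M and MA libraries alone, or with no filter on low counts, 5 of the 12 were called lower. There were 2 without MetSA replicate 3, a library that stood apart from the others of its group and that shares the estimate of the spread. On the side of malonyl-CoA, Acsf3, which makes it from malonate in mitochondria, stood at 10.6, 10.1 and 9.13 CPM in M and 10.6, 9.67 and 10.8 CPM in MA (-0.17 to 0.29, adjusted p = 0.777). Mlycd, which destroys it, stood at 15.2, 15.9 and 17.3 CPM in M and 13.9, 15.1 and 13.8 CPM in MA (-0.38 to 0.02, adjusted p = 0.221). Of 37 genes of malonyl-CoA and fatty acid metabolism 5 rose (13.5%) and 7 fell (18.9%), near or somewhat above the 10.1% of all genes, the 7 becoming 3 without MA replicate 1 and 4 without MA replicate 2. Cpt1a, the transferase that malonyl-CoA inhibits, rose from 219, 222 and 210.04 to 350.4, 335 and 329 CPM (log2 fold change 0.64 ± 0.06 SE, adjusted p = 4.13e-07). Slc25a20, the next carrier on the same route into mitochondria, went from 28.7, 32.3 and 34.8 to 43.8, 43.3 and 43.1 CPM (log2 fold change 0.44 ± 0.07 SE, adjusted p = 9.72e-05). Acsl3, which activates fatty acids for lipid synthesis, fell from 31.8, 35.6 and 31.9 to 21.3, 20.3 and 20.1 CPM (log2 fold change -0.69 ± 0.08 SE, adjusted p = 4.70e-06).

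Among 24 transporters of acids and protons 4 rose (16.7%) and 7 fell (29.2%), against 10.1% of all genes in each direction, the 7 becoming 4 without M replicate 2. Slc13a3, which carries succinate and related dicarboxylates with sodium, fell from 13.6, 14.5 and 11.6 to 3.73, 5.03 and 5.503 CPM (log2 fold change -1.48 ± 0.14 SE, adjusted p = 2.06e-07). Slc9a9, an endosomal sodium-proton exchanger, fell from 158, 169 and 158 to 79.2, 81.2 and 78.3 CPM (log2 fold change -1.02 ± 0.07 SE, adjusted p = 1.57e-09). Slc16a3, the lactate exporter MCT4, rose from 56.2, 52.99 and 53.5 to 69.8, 81.2 and 80.6 CPM (log2 fold change 0.51 ± 0.07 SE, adjusted p = 1.66e-05). Its relative Slc16a6 rose from 26.7, 29.8 and 29.9 to 43.2, 46.5 and 41.7 CPM (log2 fold change 0.61 ± 0.07 SE). Its count is less certain, because 19.5% of its stretches are shared with antisense transcripts such as Amz2. The dicarboxylate carrier Slc13a3 and the monocarboxylate carrier Slc16a3 thus changed in opposite directions.

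Succinate and low oxygen both slow the prolyl hydroxylases that mark HIF-1 for decay, and genes that HIF-1 drives are read as its targets. In MA 11 of 25 genes of the hypoxia list rose (44.0%, against 10.1% of all genes) and 2 fell (8%), with a median of 0.26. The list holds regulators as well as targets, and the 11 include Hif1a, Epas1 and Vhl. Of 24 glycolysis genes 9 rose (37.5%) and 2 fell (8.33%, 1 gene without MA replicate 2). The mRNA of Hif1a itself rose from 139, 156 and 137 to 308, 317 and 302 CPM (log2 fold change 1.101 ± 0.07 SE, adjusted p = 4.47e-10). Vhl, which encodes the ligase that removes the protein, went from 28.1, 29.6 and 29.6 to 58.99, 53.9 and 60.7 CPM (log2 fold change 0.99 ± 0.08 SE, adjusted p = 2.97e-08). Hk2, the inducible hexokinase, rose from 44.5, 47.1 and 45.4 to 105, 113 and 116 CPM (log2 fold change 1.28 ± 0.07 SE, adjusted p = 1.10e-10). Bhlhe40, a repressor induced by hypoxia, rose from 7.85, 6.85 and 7.32 to 17.5, 15.2 and 15.7 CPM (log2 fold change 1.14 ± 0.14 SE, adjusted p = 3.87e-06). All 4 rose without overlap of the groups. The glycolytic regulators Pfkfb3 and Pfkl rose less, by 0.57 and 0.49 on the log2 scale (adjusted p = 1.77e-06 and 5.93e-06). Ldhb, the lactate dehydrogenase chain of oxidative tissues, rose from 7.51, 7.67 and 7.32 to 26.2, 28.3 and 36.3 CPM (log2 fold change 2.01 ± 0.17 SE, adjusted p = 2.11e-07). The usual pattern of HIF-1 targets was not complete: Pdk1, the kinase that inhibits pyruvate dehydrogenase, fell from 85.5, 88.3 and 78.03 to 57.8, 63.5 and 64.3 CPM (log2 fold change -0.44 ± 0.07 SE, adjusted p = 9.21e-05). Ndrg1, a stress protein, went from 55.1, 53.2 and 62.98 to 35.3, 32.6 and 40.1 CPM (log2 fold change -0.67 ± 0.10 SE, adjusted p = 8.44e-05). Pfkp, the platelet isoform of phosphofructokinase, fell by 0.28 on the log2 scale.

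The hypoxia response core ACGTG was in 59.3% of the 27 promoters of that list and in 24.9% of the promoters of all genes tested, counting both strands. Its share was 61.5% in the 13 promoters of called members, close to that of the whole list. In the promoters of all genes that rose it was 24.45%. CACGTG, the E-box of MITF and TFE factors, contains it. The 250 bases before the start of Hk2, on the minus strand of GRCm38.p6, carry it in capitals 226 and 52 bases before the start. Below it stands the promoter of Mcm5, a replication gene of the next comparison that fell, with the E2F motif in capitals 149 bases before the start, searched as TTTGGCGC and TTTCCCGC on both strands.
Hk2 chr6:82774455-82774704: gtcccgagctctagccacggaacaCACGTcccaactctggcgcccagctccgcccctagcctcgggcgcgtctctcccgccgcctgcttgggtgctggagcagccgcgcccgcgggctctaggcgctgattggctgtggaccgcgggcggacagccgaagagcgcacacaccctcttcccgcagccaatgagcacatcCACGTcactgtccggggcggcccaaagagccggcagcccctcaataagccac
Mcm5 chr8:75109259-75109508: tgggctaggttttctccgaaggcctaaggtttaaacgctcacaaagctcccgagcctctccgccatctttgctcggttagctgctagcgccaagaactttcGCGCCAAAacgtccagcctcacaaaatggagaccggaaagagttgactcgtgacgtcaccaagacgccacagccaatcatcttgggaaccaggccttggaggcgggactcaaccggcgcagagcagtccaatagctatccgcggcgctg
The E2F motif stood in 30% of the 40 promoters of the replication list, against 2.8% of those of all genes tested. Its share was 28.6% in the 28 promoters of called members and 3.46% in the promoters of all genes that fell.

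DNA replication had the highest share of lower genes of all lists examined, 26 of 38 being called lower (68.4%, against 10.1% of all genes) and 1 higher, with a median of -0.54. Mcm5, a subunit of the replicative helicase, fell from 96.4, 78.9 and 76.5 to 44.8, 40.8 and 46.1 CPM (log2 fold change -0.94 ± 0.10 SE, adjusted p = 2.08e-06). Mcm2 fell from 57.7, 50.2 and 44.8 to 33.7, 28.3 and 30.9 CPM (log2 fold change -0.72 ± 0.09 SE, adjusted p = 5.96e-06). Uhrf1, which copies DNA methylation to the new strand, fell from 77.5, 56.7 and 55.4 to 33.1, 29.6 and 33.3 CPM (log2 fold change -0.98 ± 0.11 SE, adjusted p = 4.59e-06). Each of the 3 MA libraries lay below each M library in these genes. The single rise was that of E2f2, a transcription factor of the cycle (15.1, 17.7 and 18.95 CPM in M and 34.7, 34.97 and 36.98 CPM in MA; log2 fold change 1.04 ± 0.09 SE, adjusted p = 9.04e-08). Of 30 genes of mitosis 13 fell (43.3%) and edgeR called none higher, with a median of -0.35. Among them 19 were lower and 0 higher at an unadjusted p under 0.05, DESeq2 called 15 lower and 0 higher, and without MA replicate 2 the 13 became 6. Kif23, a kinesin of the dividing midbody, fell from 25.9, 28.04 and 26.8 to 15.3, 17.8 and 16.3 CPM (log2 fold change -0.71 ± 0.09 SE, adjusted p = 7.30e-06). Ccna2, cyclin A, fell by 0.62 on the log2 scale (adjusted p = 2.11e-04). Top2a, which untangles DNA, fell by 0.398 (adjusted p = 7.02e-04).

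Myc, the growth factor-induced regulator of ribosome production, fell from 32.9, 27.4 and 26.3 to 18.6, 18.05 and 17.1 CPM (log2 fold change -0.69 ± 0.10 SE, adjusted p = 2.35e-05). Nop56, a box C/D ribonucleoprotein, fell from 53.5, 46.3 and 47.96 to 37.1, 37.5 and 37.4 CPM (log2 fold change -0.399 ± 0.07 SE, adjusted p = 4.43e-04). Of 22 genes of the Myc list 9 fell (40.9%) and edgeR called none higher (11 lower and 0 higher at an unadjusted p under 0.05, 9 and 0 by DESeq2). The 9 became 4 without M replicate 1 and 5 without MA replicate 2. Of 22 p53 targets 3 rose (13.6%) and 7 fell (31.8%), against 10.1% of all genes in each direction, the 7 becoming 4 without M replicate 3. Plk2 and Plk3, a pair of polo-like kinases on this list, went apart. Plk2 fell from 312, 302 and 287 to 169, 152 and 154 CPM (log2 fold change -0.92 ± 0.07 SE, adjusted p = 2.77e-09). Plk3 rose from 3.18, 3.17 and 3.84 to 12.8, 11.8 and 13.3 CPM (log2 fold change 1.89 ± 0.14 SE, adjusted p = 5.43e-09).

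Growth factors switch on early response genes within minutes, together with MAP kinase feedback genes that damp the same signal. Of 22 immediate-early genes 7 fell (31.8%, against 10.1% of all genes) and 1 rose (0 without M replicate 2). Of 17 feedback genes 9 fell (52.9%) and 1 rose (0 without M replicate 2 or MA replicate 3), with a median of -0.38. Dusp1, the phosphatase of p38 and JNK, stood at 83.02, 76.5 and 79.5 CPM in M and 34.6, 39.9 and 39.1 CPM in MA (log2 fold change -1.07 ± 0.07 SE, adjusted p = 7.76e-10). Klf2, a factor of quiescent cells, stood at 13.7, 12.6 and 15.8 CPM in M and 5.702, 6.46 and 8.02 CPM in MA (log2 fold change -1.06 ± 0.14 SE, adjusted p = 1.00e-05). Egr3 fell from 8.82, 10.7 and 11.8 to 4.81, 4.597 and 4.27 CPM (log2 fold change -1.197 ± 0.18 SE, adjusted p = 9.67e-05). Etv5, a target of ERK signalling, fell by 0.97 on the log2 scale (adjusted p = 3.41e-08). Spred1, an inhibitor of the same signal, fell by 0.64 (adjusted p = 2.68e-07).

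Of 45 lysosomal genes 22 were called higher (48.9%, against 10.1% of all genes) and 3 lower (6.67%), and the median was 0.18. Ctss, the cathepsin that trims the invariant chain, rose from 1353, 1530.1 and 1626 to 2566, 2459 and 2832 CPM (log2 fold change 0.801 ± 0.07 SE, adjusted p = 9.91e-08). Ctsh went from 169.9, 193 and 203 to 346, 347 and 381 CPM (log2 fold change 0.92 ± 0.07 SE, adjusted p = 5.31e-09). The groups did not overlap in either gene. The 3 that fell included the proton pump subunits Atp6v0d2, given above, and Atp6v0a1 (509, 476 and 481 CPM in M and 294, 291 and 290.1 CPM in MA; log2 fold change -0.74 ± 0.06 SE, adjusted p = 3.45e-08). CACGTG stood in 29.6% of the 44 lysosomal promoters and in 9.77% of those of all genes tested. In the promoters of all genes that rose its share was 9.30%, so the share of the list describes its members and not the response to MA. Among 25 scavenger and clearance receptors 11 rose (44.0%) and 4 fell (16%). A separate list of 9 Fc receptor genes had 2 higher and 2 lower (22.2% each), with a median of -0.14. The 2 lower became 1 without M replicate 2, M replicate 3, MA replicate 1 or MA replicate 2. They became 4 with a replicate block on the M and MA libraries alone. The 2 higher were Fcgr2b and Fcrls. Fcgr2b, the inhibitory Fc receptor, rose from 58.9, 60.99 and 67.4 to 123, 115 and 110.4 CPM (log2 fold change 0.895 ± 0.07 SE, adjusted p = 5.37e-09). Fcrls, an Fc receptor-like scavenger receptor, rose from 310.2, 278 and 301 to 951, 753 and 871 CPM (log2 fold change 1.53 ± 0.11 SE, adjusted p = 1.99e-07). Complement genes had no common direction, with 2 of 18 higher and 2 lower (11.1% each), near the 10.1% of all genes. The 2 lower became 4 with DESeq2 and 5 with a replicate block. The 2 higher became 1 with upper-quartile scaling. Cfp, which encodes properdin, fell (396, 409 and 438 CPM in M and 159.8, 173 and 164 CPM in MA, log2 fold change -1.32 ± 0.06 SE, adjusted p = 9.82e-12).

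**Figure D3:**
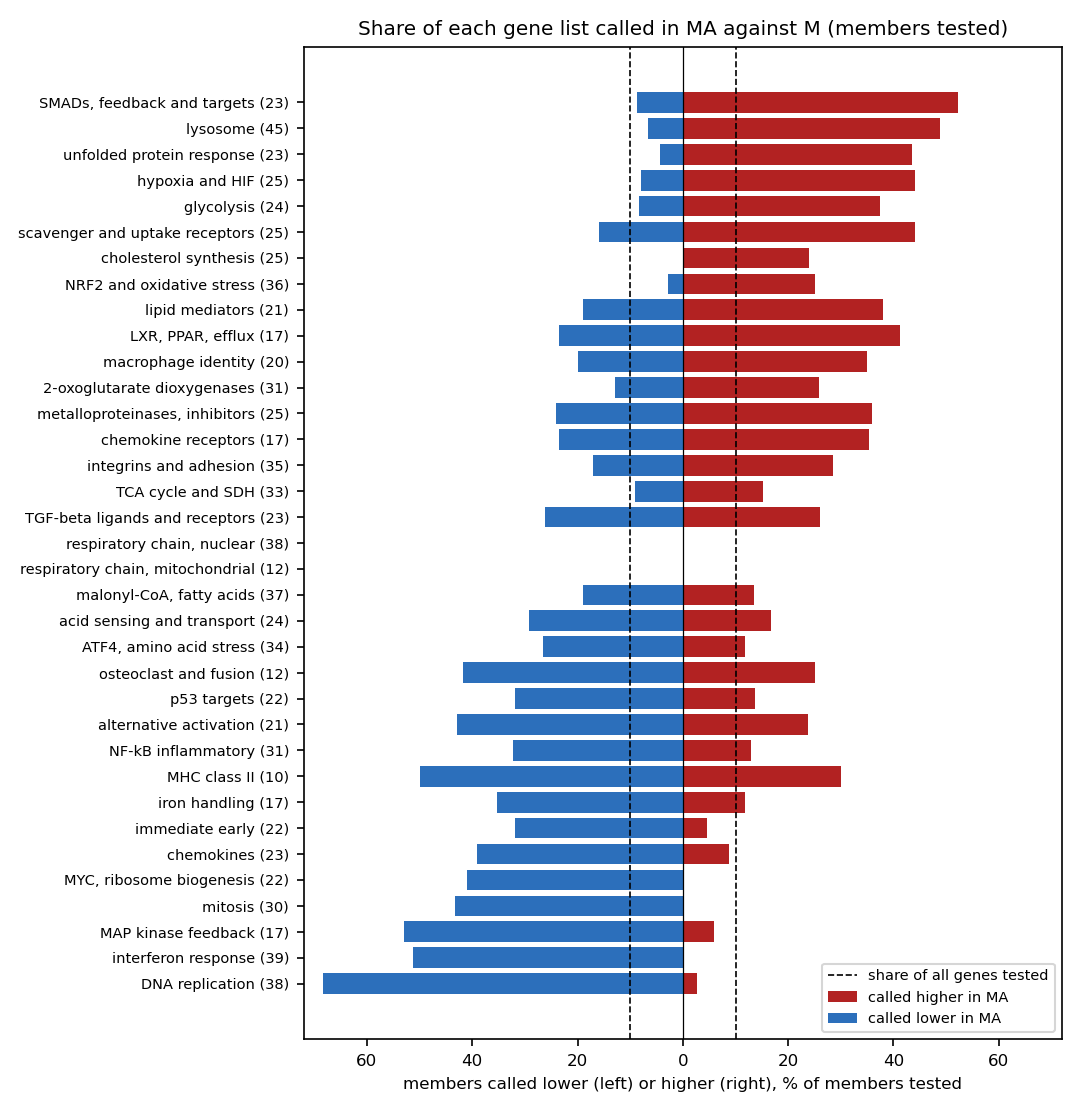
For each gene list, the share of tested members called higher (red, to the right) and lower (blue, to the left) on the horizontal axis, in percent, with dashed lines at the 10.1% of all genes called in each direction. Replication genes extend farthest to the left, followed by the MAP kinase feedback and interferon lists, and the SMAD and lysosome lists farthest to the right.

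Unstimulated macrophages keep interferon-stimulated genes on through tonic interferon. Of 39 such genes tested 20 fell (51.3%, against 10.1% of all genes) and edgeR called none higher, with a median of -0.44. By an unadjusted p under 0.05, 27 were lower and 0 higher, and DESeq2 called 27 lower and 0 higher. The count of lower genes was 9 without M replicate 2, M replicate 3 or MA replicate 1, 10 without MA replicate 2, and 33 with no filter on low counts. With no filter, or on the M and MA libraries alone, 1 member was called higher. Oas2, a sensor of double-stranded RNA, fell from 90.5, 93.4 and 125 to 53.98, 67.1 and 61.9 CPM (log2 fold change -0.76 ± 0.12 SE, adjusted p = 3.32e-04). Ddx58, which encodes RIG-I, fell from 109.7, 118 and 130.3 to 80.2, 93.05 and 94.6 CPM (log2 fold change -0.42 ± 0.08 SE, adjusted p = 0.00135). Parp14 went from 492, 528 and 459.9 to 369, 394 and 384 CPM (log2 fold change -0.37 ± 0.08 SE, adjusted p = 0.00388). Groups did not overlap in these 3 genes but lay close together. The interferon response core TTTCNNTTT, searched on both strands, was in 69.4% of the 36 promoters of this list and in 8.26% of those of all genes tested. Its share was 70.6% in the 17 promoters of called members and 10.3% in the promoters of all genes that fell.

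Cytokine genes that NF-kB controls were mixed, 10 of 31 being lower (32.3%) and 4 higher (12.9%). Il10, the anti-inflammatory cytokine, fell from 2.38, 3.59 and 2.83 to 0.559, 0.513 and 0.423 CPM (log2 fold change -2.55 ± 0.20 SE, adjusted p = 1.37e-08). Tnf fell from 21.01, 20.04 and 20.5 to 14.5, 13.2 and 14.8 CPM (log2 fold change -0.53 ± 0.09 SE, adjusted p = 1.67e-04). Nfkbiz, a nuclear cofactor of NF-kB, stood at 50.2, 57.6 and 59.7 CPM in M and 28.1, 32.8 and 31.1 CPM in MA (log2 fold change -0.87 ± 0.08 SE, adjusted p = 2.49e-07). Il1b was at 3.95, 6.87 and 6.27 CPM in M and 4.14, 6.14 and 3.89 CPM in MA and was not called (95% interval -0.72 to 0.18, adjusted p = 0.427). Acod1, the enzyme that makes itaconate from aconitate, rose from 1.49, 2.09 and 3.19 to 4.81, 6.27 and 6.0996 CPM (log2 fold change 1.34 ± 0.27 SE, adjusted p = 0.00381).

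Of 23 chemokines 9 fell (39.1%) and 2 rose (8.70%), against 10.1% of all genes in each direction. Ccl6 and Ccl9 are chemokines that resting macrophages make. Ccl6 fell from 191, 199 and 197 to 79.8, 78.1 and 81.9 CPM (log2 fold change -1.29 ± 0.07 SE, adjusted p = 2.56e-11). Ccl9 fell from 922, 1114 and 997 to 510.1, 567 and 559 CPM (log2 fold change -0.89 ± 0.07 SE, adjusted p = 1.97e-08). Ccl4 fell from 13.1, 17.5 and 17.5 to 8.07, 7.52 and 8.101 CPM (log2 fold change -1.02 ± 0.14 SE, adjusted p = 3.02e-05). The rises were those of Cxcl14 and of Cxcl16, which exists as a membrane-bound and a soluble chemokine. Cxcl14 stood at 24.4, 34.4 and 31.1 CPM in M and 99.1, 132 and 114 CPM in MA (log2 fold change 1.94 ± 0.21 SE, adjusted p = 1.64e-04). Cxcl16 stood at 175, 187 and 203 CPM in M and 277, 310.1 and 313 CPM in MA (log2 fold change 0.67 ± 0.07 SE, adjusted p = 4.20e-07). Of 17 chemokine and chemoattractant receptors 6 were higher (35.3%) and 4 lower (23.5%), with 9 fold changes above and 8 below 0. Cxcr4, the receptor for CXCL12, rose from 189, 194 and 209 to 598, 599 and 636 CPM (log2 fold change 1.63 ± 0.07 SE, adjusted p = 1.29e-12). Ccrl2 went from 7.57, 7.59 and 8.43 to 18.4, 17.1 and 19.5 CPM (log2 fold change 1.22 ± 0.09 SE, adjusted p = 8.32e-09). Ccr3, the eotaxin receptor, fell from 34.6, 41.2 and 36.8 to 10.9, 11.6 and 11.5 CPM (log2 fold change -1.73 ± 0.09 SE, adjusted p = 3.31e-11). Of 25 Toll-like receptor genes and adaptors 7 rose (28%) and 3 fell (12%), with Tlr2 rising from 140.4, 149 and 142 to 227, 243 and 249.97 CPM (log2 fold change 0.74 ± 0.08 SE, adjusted p = 4.24e-07).

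Lipid genes moved without a common direction. Pparg, the nuclear receptor for fatty acids, fell from 95.3, 106 and 95.4 to 36.6, 41.01 and 35.7 CPM (log2 fold change -1.39 ± 0.07 SE, adjusted p = 1.94e-11). Its target Lpl, lipoprotein lipase, fell from 7976, 8393 and 8058 to 4274, 3784 and 4128 CPM (log2 fold change -1.003 ± 0.09 SE, adjusted p = 6.96e-07). Other members of the LXR and PPAR list rose, 7 of 17 (41.2%) against 4 that fell (23.5%). Plin2, the coat of lipid droplets, rose from 1485, 1423 and 1441 to 2176, 2113 and 2209 CPM (log2 fold change 0.58 ± 0.06 SE, adjusted p = 3.17e-07). Mylip, which degrades the LDL receptor, went from 101, 97.4 and 110.4 to 149.8, 156 and 157 CPM (log2 fold change 0.58 ± 0.06 SE, adjusted p = 4.10e-07). Of 25 cholesterol synthesis genes 6 rose (24%) and edgeR called none lower (6 and 0 at an unadjusted p under 0.05 and by DESeq2). Hmgcs1 rose by 0.396 and Sc5d by 0.45 on the log2 scale (adjusted p = 8.79e-04 and 1.49e-04). Single prostaglandin genes rose at 3 steps of the pathway. Ptgs1, the constitutive cyclooxygenase, stood at 20.8, 20.6 and 23.7 CPM in M and 45.8, 48.3 and 50.7 CPM in MA (log2 fold change 1.15 ± 0.10 SE, adjusted p = 2.02e-07). Ptges, which makes prostaglandin E2, stood at 2.44, 1.797 and 2.06 CPM in M and 4.86, 4.98 and 6.75 CPM in MA (log2 fold change 1.398 ± 0.20 SE, adjusted p = 2.87e-05). Its receptor Ptger2 stood at 4.17, 4.501 and 4.87 CPM in M and 11.03, 10.2 and 10.04 CPM in MA (log2 fold change 1.21 ± 0.16 SE, adjusted p = 9.03e-06). The enzyme upstream of all of them, the phospholipase Pla2g4a, fell from 22.4, 22.5 and 19.1 to 16.5, 13.3 and 15.1 CPM (log2 fold change -0.51 ± 0.12 SE, adjusted p = 0.00395). Over the whole list 8 of 21 lipid mediator genes rose (38.1%) and 4 fell (19.0%).

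Purine signalling showed Nt5e as its largest rise, with 5 of 21 tested genes higher (23.8%), 1 lower (0 without M replicate 2 or MA replicate 1) and a median close to 0, so the list as a whole did not follow its leading member. Enpp1, which makes AMP from ATP, rose from 24.3, 26.3 and 23.7 to 39.7, 37.7 and 33.8 CPM (log2 fold change 0.58 ± 0.08 SE, adjusted p = 9.77e-06). Slc29a3, a lysosomal nucleoside carrier, rose from 125, 129 and 132 to 190.5, 189.7 and 187 CPM (log2 fold change 0.56 ± 0.05 SE, adjusted p = 1.76e-07).

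**Figure D4:**
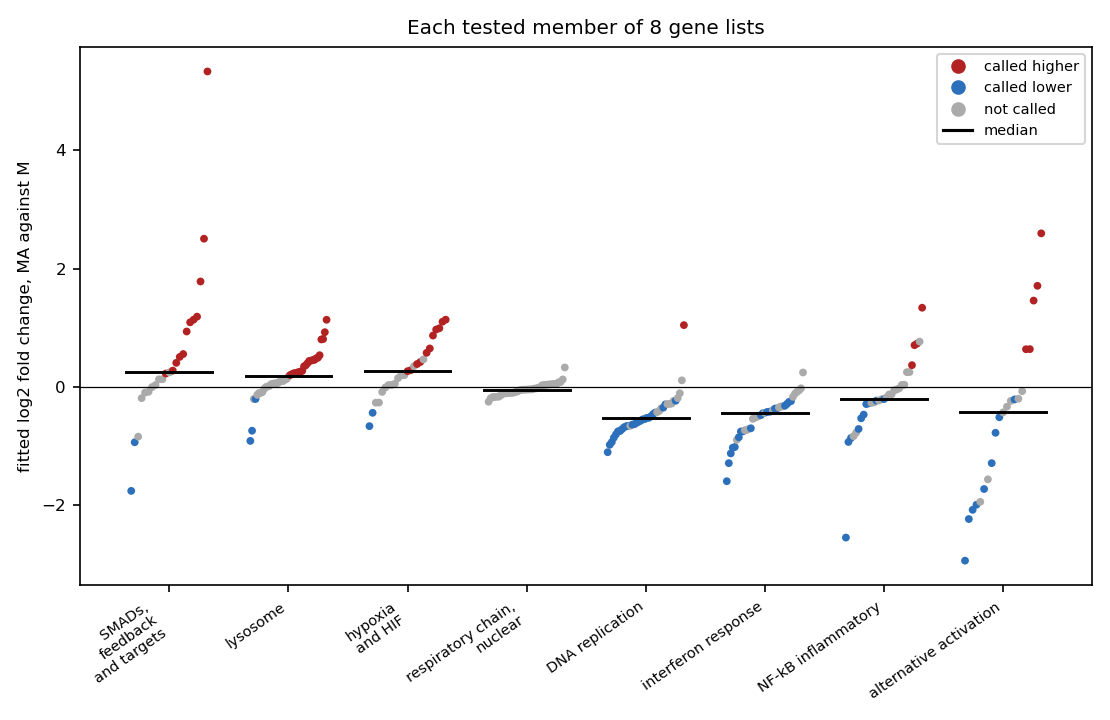
Fitted log2 fold change of MA against M (vertical axis) of each tested member of 8 gene lists (horizontal axis), ordered by size within a list, red where called higher, blue where called lower and grey where not called, with a black line at the median of the list. Pmepa1, at 5.34, tops the SMAD list, nearly all replication genes lie below 0, and the nuclear-encoded respiratory chain genes stay grey and near 0.

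Among stress responses, 9 of 36 NRF2 targets rose (25%) and 1 fell (2 without M replicate 1 or M replicate 3), with a median of 0.05. Prdx5, the peroxiredoxin named in the title of the series, rose from 115, 113 and 131 to 222, 231 and 249.7 CPM (log2 fold change 0.97 ± 0.08 SE, adjusted p = 1.73e-08). Of its stretches 12.6% overlap the antisense gene Trmt112, and the files do not state whether strand was used. Slc7a11, the cystine importer, rose from 1.69, 1.85 and 1.83 to 5.01, 5.05 and 4.31 CPM (log2 fold change 1.42 ± 0.28 SE, adjusted p = 0.00111). Mgst1, a microsomal glutathione transferase, rose from 47.03, 52.2 and 60.6 to 115, 107 and 122 CPM (log2 fold change 1.104 ± 0.12 SE, adjusted p = 7.19e-06). G6pdx, the source of NADPH, fell by 0.38 on the log2 scale (adjusted p = 0.00655). These rises belong to single genes, since 26 of the 36 targets were not called. Of 34 ATF4 targets 9 were lower (26.5%) and 4 higher (11.8%). The higher ones included Slc7a11, given above, which had the largest change of this list. The lower ones included the amino acid carriers Slc7a5 and Slc7a1. Slc7a5 stood at 12.4, 10.6 and 9.53 CPM in M and 7.01, 5.59 and 5.79 CPM in MA (log2 fold change -0.82 ± 0.16 SE, adjusted p = 7.33e-04). Slc7a1 stood at 38.3, 32.2 and 28.1 CPM in M and 24.9, 20.3 and 20.1 CPM in MA (log2 fold change -0.595 ± 0.11 SE, adjusted p = 3.82e-04). Of 23 genes of the unfolded protein response 10 were higher (43.5%), each by less than 2-fold, and 1 lower (0 without M replicate 2 or MA replicate 1, 3 without M replicate 3). The chaperones Hsp90b1 and Calr rose by 0.303 and 0.29 on the log2 scale (adjusted p = 8.04e-04 and 0.00194). In iron handling 6 of 17 genes fell (35.3%) and 2 rose (11.8%, 1 gene without M replicate 1, M replicate 2, MA replicate 2 or MA replicate 3). Fth1, the ferritin heavy chain, rose from 4353, 4800.4 and 5375 to 7560.1, 7477 and 7701 CPM (log2 fold change 0.65 ± 0.07 SE, adjusted p = 4.99e-07). Slc40a1, the iron exporter ferroportin, fell from 243, 256 and 255 to 152, 145 and 145 CPM (log2 fold change -0.77 ± 0.09 SE, adjusted p = 6.12e-06).

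Dioxygenases that use 2-oxoglutarate, and are slowed by succinate, showed 8 of 31 genes higher (25.8%) and 4 lower (12.9%), against 10.1% of all genes in each direction, but the 8 became 3 without MA replicate 1 and 5 without M replicate 2, M replicate 3 or MA replicate 2. P4ha1, a collagen prolyl hydroxylase, rose from 95.8, 97.2 and 94.8 to 133, 127 and 125 CPM (log2 fold change 0.42 ± 0.07 SE, adjusted p = 1.23e-04). Tet2, which oxidises methylated DNA, fell from 86.2, 91.7 and 77.6 to 60.9, 67.5 and 61.4 CPM (log2 fold change -0.43 ± 0.09 SE, adjusted p = 0.00169).

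Of 20 genes that define macrophages 7 rose (35%) and 4 fell (20%), against 10.1% of all genes in each direction, each by less than 2-fold, and their summed level was higher in MA, from 39524.2 to 41831.3 CPM against 33435.7 to 36101.7 CPM in M. Csf1r was not called (95% interval -0.08 to 0.22). Mertk, a receptor for dying cells, rose from 122, 131 and 117 to 217, 202 and 179.8 CPM (log2 fold change 0.695 ± 0.08 SE, adjusted p = 2.02e-06). The transcription factor Cebpa had a log2 fold change of 0.81 (adjusted p = 2.08e-08). Adgre1 and the factor Maf had log2 fold changes of -0.43 and -0.31 (adjusted p = 1.11e-04 and 0.00161). Among markers of other cells, Mmp8 of the neutrophil list rose from 9.49, 9.37 and 11.6 to 19.8, 17.7 and 16.95 CPM (log2 fold change 0.84 ± 0.11 SE) while the other 8 tested were not called. Siglech and Xcr1 of the dendritic list were called higher at low levels. Siglech stood at 0.463, 0.241 and 0.745 CPM in M and 1.49, 1.31 and 1.001 CPM in MA and Xcr1 at 0.161, 0.241 and 0.267 CPM in M and 0.317, 0.551 and 0.462 CPM in MA. Siglech lost the call without M replicate 2 or MA replicate 1, and Xcr1 without M replicate 1, M replicate 2, MA replicate 2 or MA replicate 3. Xcr1 also lost it with edgeR on halved counts (adjusted p = 0.0859) and on the M and MA libraries alone (0.173). With a replicate block on those libraries it was not called either (0.183). No lymphocyte or stromal marker was called by edgeR. The part of other cells in the results was not tested.

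Set directly against the related acids at the same dose and time, MA differed from IA in 4887 of the 14113 genes (34.6%) and from MetSA in 3720 (26.4%). MetSA and IA differ from malonic acid in the carbon skeleton between or beside the acid groups: IA carries a methylene group and MetSA a methyl group on a succinate backbone, which is longer than that of malonate. Of the 2860 genes called against M, 1819 were also called between MA and IA and 1762 between MA and MetSA. On both counts at once, 683 genes were higher and 708 lower in MA than in M, IA and MetSA, each by its own test. Since MA enters all 3 comparisons, these counts are not independent of one another.

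Several of the leading genes were among them. Pmepa1 stood at 1.96, 2.93 and 2.28 CPM in IA and 1.24, 0.909 and 1.17 CPM in MetSA, below the MA libraries by 3.49 and 4.61 on the log2 scale (adjusted p = 1.61e-12 and 3.87e-13). Nt5e stood at 2.85, 1.903 and 1.81 CPM in IA and 0.906, 1.42 and 1.33 CPM in MetSA (MA higher by 2.98 and 3.82, adjusted p = 1.42e-09 and 1.43e-10). Cav1 was at 12.9, 21.7 and 18.1 CPM in IA and 14.1, 18.5 and 26.8 CPM in MetSA (differences of 2.58 and 2.41, adjusted p = 4.47e-05 and 8.57e-05). Dmpk was at 20.3, 16.7 and 15.1 CPM in IA and 27.9, 24.3 and 22.6 CPM in MetSA (differences of -2.71 and -3.24, adjusted p = 2.70e-12 and 4.82e-13). Mrc1 was at 623, 625 and 548 CPM in IA and 655, 634 and 717 CPM in MetSA (differences of -1.53 and -1.69, adjusted p = 2.16e-10 and 9.44e-11).

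Tgfbr1 and Clec4a1 also set MA apart. Tgfbr1 stood at 367, 379.6 and 409 CPM in IA and 290.1, 319 and 342 CPM in MetSA (MA higher by 1.42 and 1.701, adjusted p = 6.30e-12 and 1.14e-12). Clec4a1 was at 349.8, 342 and 365 CPM in IA and 352, 370.5 and 409 CPM in MetSA (differences of -2.84 and -2.94, adjusted p = 1.19e-13 and 2.30e-13). For Clec4a1 the IA and MetSA libraries thus lay above those of M and the MA libraries below them. Il10 and Oas2 were split in this way too. Il10 stood at 8.11, 9.56 and 8.69 CPM in IA and 8.32, 7.27 and 7.04 CPM in MetSA (differences of -4.13 and -3.91, adjusted p = 4.05e-12 and 1.55e-11). Oas2 stood at 252, 255 and 258 CPM in IA and 213, 215 and 183 CPM in MetSA (differences of -2.06 and -1.74, adjusted p = 9.86e-09 and 7.14e-08).

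For other genes the difference between MA and IA was not called. Skil was at 307, 319 and 329 CPM in IA (MA minus IA, 95% interval -0.11 to 0.18, adjusted p = 0.73). In MetSA it was at 245, 261 and 219.98 CPM, where it was lower than in MA (difference 0.43, adjusted p = 7.01e-05). Mcm5 was at 45.2, 50.6 and 38.8 CPM in IA (95% interval -0.24 to 0.18, adjusted p = 0.837). In MetSA it was at 59.4, 52.4 and 54.5 CPM (difference -0.34, adjusted p = 0.0171). Hif1a was at 284, 299 and 275 CPM in IA (95% interval -0.03 to 0.25, adjusted p = 0.217). In MetSA it was at 243, 261 and 286 CPM (difference 0.23, adjusted p = 0.0145). Prdx5 was at 199, 211 and 209.6 CPM in IA (95% interval 0.02 to 0.34, adjusted p = 0.0786). In MetSA it was at 211, 199.6 and 170.1 CPM (difference 0.27, adjusted p = 0.0115). In all 4 the MA libraries stood on the same side of M as those of IA and MetSA, and since these comparisons share M, that is given as values only.

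**Figure D5:**
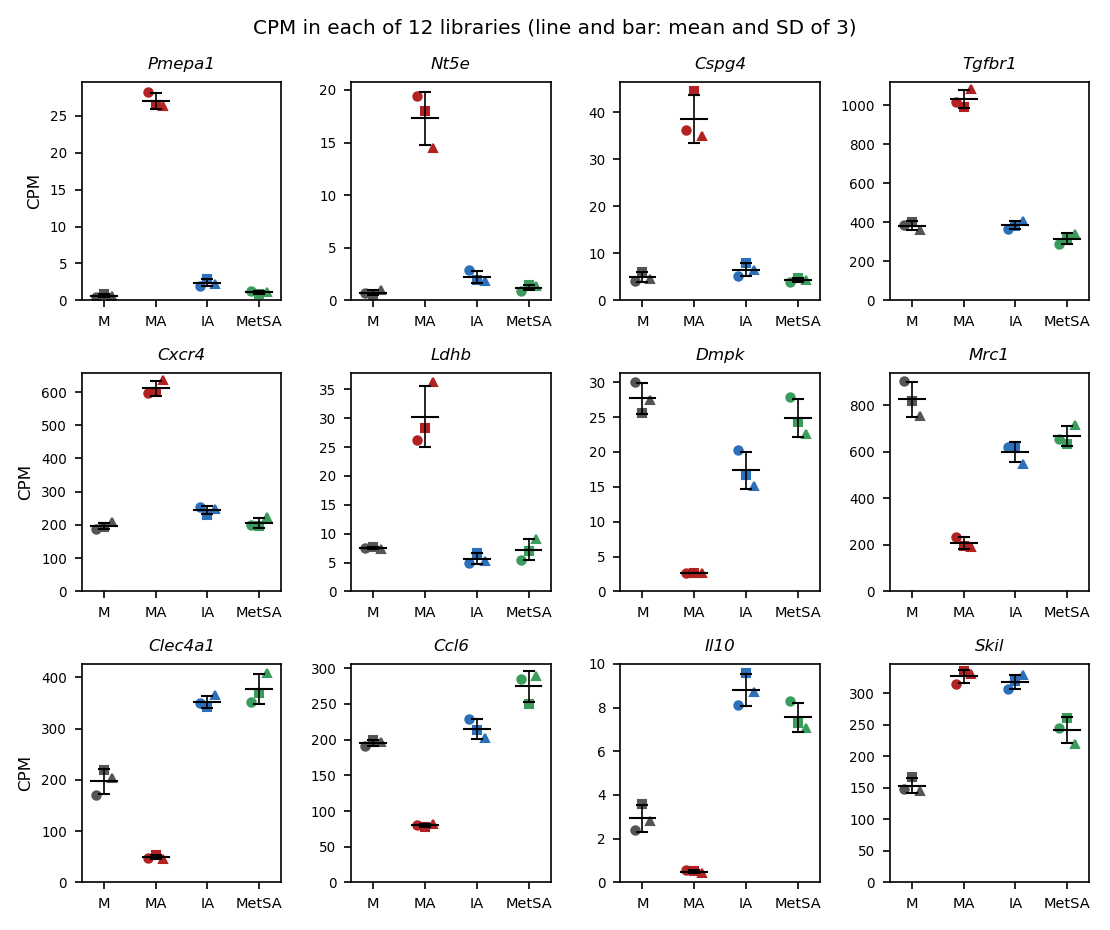
CPM (vertical axis from 0) of 12 genes in each library of M (grey), MA (red), IA (blue) and MetSA (green), 1 panel a gene, with a line and bar at the mean and SD of 3 libraries. The MA libraries are the highest of the 4 groups in Pmepa1, Nt5e and Cspg4 and the lowest in Dmpk, Mrc1 and Clec4a1.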

How the data were processed

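The authors deposited 1 table of whole-number read counts per gene for 32285 genes and 12 libraries of poly(A) RNA, which per the labels came from 3 biological replicates in each of 4 groups. STAR, featureCounts and mm10 are named in the submitters' processing notes. Their versions, the strand setting and whether both mates of a pair were counted were not stated in the sources used here. Among counts from 1 to 9, 66.1% were even, against 50.9% of counts of 1000 or more. Whether fragments were counted more than once was not tested, and a fit with halved counts is given below. Columns were matched to samples by the labels. Gene models came from GENCODE on GRCm38, promoters from RefSeq on GRCm38.p6.

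Counts were fitted with edgeR 4.0.16 (limma 3.58.1, R 4.3.3), using TMM scaling, filterByExpr and a robust quasi-likelihood fit over all 12 libraries, which left 14113 genes and 8 residual degrees of freedom. The method was tested on simulated counts first. DESeq2 1.42.0 was an alternative. Depth was 46892488 to 54252486 counts per library. Genes without a symbol held 0.0267% of counts. Counts are less certain for genes that share more than 10% of their stretches of 96 bases with others. Besides those flagged where they are named, these included Etv5 (15.7%), H2-DMb1 (12.1%) and Nop56 (12.0%) in the sense direction. In the antisense direction they included Cxcl16 (14.3%), Csf1r (13.6%) and Ccna2 (10.25%). Replicates of 1 group differed far beyond counting error (the lowest chi-square divided by its degrees of freedom was 12.9), so none was treated as a duplicate.

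The members and gene lists were chosen with earlier results of these data known. Named genes were the 12 largest rises and 12 largest falls that reached a mean of 10 CPM without overlap of the groups, leaving out predicted genes and pseudogenes, up to 4 called members of smallest p and up to 2 going the other way in each list, and a set of key genes; some of them are not reported here. The neighbours of Dmpk and the genes of the other observations were chosen after their values were seen. Same-numbered M and MA libraries had correlated deviations of 0.135, 0.046 and 0.095, against -0.110 to 0.023 for the other pairs. The labels state no pairing, so the main fit had no replicate block. Fits with a block are given below.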

Additional observations from a re-analysis of the deposited data

How the results depend on the processing

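With 1 library of M or MA left out, 2104 to 2446 genes were called, the fewest without MA replicate 1, against 2860. DESeq2 called 3132, upper-quartile scaling 2848, RLE scaling 2857, halved counts 2914, the 6 M and MA libraries alone 2902, no filter on low counts 3017, a stricter filter 2609, and leaving out MetSA replicate 3 3185. The stricter filter left 271 genes changed at least 2-fold, against 528, because fewer genes were tested. Higher genes made up 46.7% to 52.4% of the calls, and no gene that was called changed direction in any of these settings. Sdha, not called, had a log2 fold change of -0.0063 with upper-quartile scaling and of -0.0138 (without MA replicate 3) to 0.0269 (without MA replicate 1) with 1 library left out. A replicate block gave 3262 calls, and 3992 on the M and MA libraries alone, with 13 and 33 of the interferon-stimulated genes called lower, against 20. Each library correlated best with its own number, a hint from the data and not from the design. Depth limits the genes at or under 1 CPM, such as Id1 in MA, more than those named at higher levels.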

Other observations

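Genes chosen after their values were seen give a further view of the same comparison, as description only. Of 21 genes best known from microglia, the macrophages of the brain, 19 were tested, 11 were higher (57.9%) and 1 lower (5.26%), against 10.1% of all genes in each direction, with a median log2 fold change of 0.79. Cx3cr1, the fractalkine receptor, stood at 168, 229 and 229.9 CPM in M and 907, 974 and 1048 CPM in MA (log2 fold change 2.22 ± 0.25 SE, adjusted p = 2.57e-04). Tmem119, a membrane protein used to tell microglia from other macrophages, stood at 0.644, 0.445 and 0.535 CPM in M and 3.04, 3.27 and 2.598 CPM in MA (log2 fold change 2.45 ± 0.29 SE, adjusted p = 2.50e-06). In both genes the MA libraries lay far above the M libraries. Gpr34, a lysophosphatidylserine receptor, went from 48.7, 69.8 and 66.6 to 105, 116 and 117 CPM (log2 fold change 0.87 ± 0.13 SE, adjusted p = 3.96e-04). Gas6, a ligand of Mertk, fell from 349.98, 311 and 323 to 274, 233 and 242 CPM (log2 fold change -0.39 ± 0.07 SE, adjusted p = 4.88e-04). The members P2ry12, Olfml3, Fcrls, Tgfbr1 and Mertk are also among the genes of the lists above.

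Of 17 C-type lectins tested, also chosen after their values were seen, 8 fell (47.1%) and 3 rose (17.6%). The 8 include Mrc1, Clec10a, Clec4a1 and Clec4b1, already picked above as largest falls, so their share is no separate result. The share of all genes was 10.1% in each direction, and the median of the 17 was -0.70. Mgl2, a galactose lectin encoded beside Clec10a, fell from 1.71, 1.94 and 3.52 to 0.447, 0.247 and 0.231 CPM (log2 fold change -2.94 ± 0.46 SE, adjusted p = 2.00e-04). Clec4a2 fell from 81.7, 108 and 99.5 to 27.7, 31.003 and 26.8 CPM (log2 fold change -1.76 ± 0.11 SE, adjusted p = 2.97e-08). Clec4a3 went from 80.2, 111 and 107 to 38.3, 44.1 and 44.01 CPM (log2 fold change -1.24 ± 0.10 SE, adjusted p = 7.86e-08). The 3 that rose were Clec5a, Clec4d and Clec4e, which encodes Mincle. Clec5a stood at 11.3, 12.4 and 12.5 CPM in M and 25.4, 25.6 and 27.4 CPM in MA (log2 fold change 1.11 ± 0.12 SE, adjusted p = 5.37e-07). Clec4d stood at 198, 244 and 252 CPM in M and 321, 321 and 321 CPM in MA (log2 fold change 0.47 ± 0.09 SE, adjusted p = 6.51e-04). Clec4e stood at 23.000, 28.6 and 28.05 CPM in M and 36.7, 38.8 and 39.3 CPM in MA (log2 fold change 0.53 ± 0.11 SE, adjusted p = 0.00145). Receptors of 1 family and partly of 1 gene cluster thus changed in both directions.

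Single genes stood out as well. Tmeff1, a membrane protein with follistatin domains, was close to 0 in M (0.161, 0.03704 and 0 CPM) and at 7.901, 7.29 and 8.14 CPM in MA. Its log2 fold change of 6.86 ± 0.43 SE (adjusted p = 6.93e-10) was above that of Pmepa1, but it stayed under 10 CPM. Thbs1, which encodes thrombospondin, an activator of latent TGF-beta, rose from 161, 226 and 182 to 949.5, 1254 and 775 CPM (log2 fold change 2.39 ± 0.21 SE, adjusted p = 3.47e-05). With the other acids its mean was 1425 ± 179 CPM in IA and 1036 ± 154 CPM in MetSA (SD, n = 3). Runx3, a transcription factor, rose from 1.49, 1.5002 and 1.76 to 10.4, 10.1 and 8.47 CPM (log2 fold change 2.61 ± 0.16 SE, adjusted p = 5.67e-10). Smad7, the inhibitory SMAD, went from 9.204, 8.06 and 8.62 to 18.3, 19.1 and 19.5 CPM (log2 fold change 1.14 ± 0.10 SE, adjusted p = 7.89e-08). Arg2, the mitochondrial arginase, rose from 0.846, 0.667 and 1.41 to 5.57, 5.26 and 5.89 CPM (log2 fold change 2.51 ± 0.29 SE, adjusted p = 2.02e-06). Mycl, a relative of Myc, fell from 9.63, 9.89 and 7.604 to 1.49, 1.25 and 1.54 CPM (log2 fold change -2.66 ± 0.21 SE, adjusted p = 1.05e-08). Ccnd1, cyclin D1, fell from 282, 265 and 228 to 124, 112 and 123 CPM (log2 fold change -1.11 ± 0.11 SE, adjusted p = 2.27e-06). Arg2 and Ccnd1 share stretches with antisense genes, so their counts are less certain. The M and MA values did not overlap in any of these genes.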
